A study of Homo sapiens with 6 samples.

Results

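The transcripts examined here are those of the cellular response to low oxygen that lie outside glycolysis: the subunits of the hypoxia-inducible factors (HIF), the enzymes and the ligase subunit that restrain them, and target genes of HIF. The set comprised 33 genes, chosen by gene symbol from a written list, out of 56638 symbols in the count files. All 33 passed the filter on low counts, although 7 of them had a mean below 10 CPM, that is, counts scaled to a library of fixed size. RNA of a human line of colorectal cancer cells was sequenced in 6 libraries, 3 transfected with a nonspecific control siRNA and 3 with siRNA against GLCC1, the long noncoding RNA also named lncRNA-AF339830. All libraries came from cells grown in RPMI-1640 medium with fetal bovine serum, and the labels name no low-oxygen treatment in either group. The line is SW480 in the labels and DLD-1 in the methods of the study, both lines of colorectal carcinoma. The labels describe a single GLCC1 siRNA arm and do not say which of the GLCC1 siRNAs of the study it held, and nothing states that the libraries came from separate cultures, so that p-values measure the spread between these samples. Groups followed the sample titles, source names and genotypes. The titles of both groups end in siRNA with a number, which was read as the replicate number, although the study also numbers its GLCC1 siRNAs. In the descriptions, however, the names of the libraries are crossed between the siRNAs, and if those were right, every difference below would have the opposite sign.

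Depth on genes ran from 15002165 to 19042516 read pairs per control library and from 11948790 to 18390975 per GLCC1 siRNA library. GLCC1 has no row of its own, so the knockdown could not be read. FARP1, the gene taken to contain its locus, fell by 0.77 on the log2 scale (edgeR adjusted p = 9.21e-06). The position of GLCC1 was not checked here, and the level of FARP1 does not measure the knockdown. The share of read pairs on no gene was 11.2% to 11.5% in controls and 12.5% to 14.2% after GLCC1 siRNA, without overlap. GLCC1 siRNA replicate 2 was the smallest library, had the highest such share, 14.2%, and stood apart from its own group. The chi-square per degree of freedom of its counts against the other 2 GLCC1 siRNA libraries was 18.9 and 19.8, whereas other pairs of the same group gave 1.92 to 4.22. Interferon response genes were higher in 19 of 20 cases, with a summed level of 4422 to 5658 CPM against 1428 to 1712 CPM in controls. The 10 colon epithelial markers summed to 2468 to 2876 CPM against 5775 to 6309 CPM in controls, with 6 lower and 1 higher. Keratins made up most of the sum. KRT8, KRT19 and KRT18 averaged 3584, 881 and 423 CPM in controls and 1177, 347 and 120 CPM after GLCC1 siRNA. The other lower markers, EPCAM, CDH1 and LGALS4, had log2 fold changes of -0.30, -0.53 and -0.66. CDH17 was higher (0.45), and VIL1 (0.21) and CDX2 (-0.24) were not called. KRT20 was below 1 CPM in both groups. Markers of other cell types summed to 14.0 to 18.2 CPM against 20.2 to 23.0 CPM, and 3 of the 10 genes on that list had enough counts to be tested. The fibroblast gene COL1A1 was lower (log2 fold change -0.86, edgeR adjusted p = 0.000293), PDGFRB and the monocyte gene CD14 were not called, and DCN, PTPRC, PECAM1 and CDH5, which define fibroblasts, leukocytes and endothelium, had no counts. The part of these shifts in the results below was not tested. In bulk RNA, fewer cells of one kind and less RNA per cell cannot be told apart.

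HIF is a pair of proteins, an oxygen-regulated alpha subunit and the stable partner ARNT. When oxygen is plentiful, prolyl hydroxylases of the EGLN family mark the alpha subunit, VHL recognises the mark and brings in a ubiquitin ligase, and the asparaginyl hydroxylase HIF1AN blocks contact with coactivators. When oxygen falls, these enzymes slow, the alpha subunit accumulates and the pair binds short sequences in target genes for blood vessel growth, pH control, mitophagy, collagen modification and chromatin. In colorectal cancers the pathway is known for its link to poorly perfused regions of the tumour and to the shift towards lactate production. Since HIF alpha subunits are controlled mainly as proteins, transcript levels of the subunits do not measure HIF activity.

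The set moved in both directions. Of the 33 genes, 7 were higher in the GLCC1 siRNA libraries with an adjusted p under 0.05 from edgeR (21.2%), beside 14.9% of all 23074 genes tested, and 10 were lower (30.3%), beside 16.7% of all genes tested. Of the 14875 genes that averaged 1 CPM or more, 20.3% were higher and 24.8% lower. Counts by role below cover a few genes each and are to be read beside these shares. The median log2 fold change of the set was -0.02 and that of all genes tested was 0.03, so the set as a whole stood close to the centre of the transcriptome. In 8 genes each GLCC1 siRNA library was above each control library, where 22.3% of all genes tested showed this. In 11 each was below, where 24% did. Both shares include genes below 1 CPM, and neither was taken for genes averaging 1 CPM or more. Only CA9, ANKRD37 and AK4 changed at least 2-fold, CA9 upwards and the other two downwards. Scaling by library totals alone gave 11 genes higher and 8 lower, and moved the median of all genes tested to 0.15 and that of the set to 0.10. A two-sided exact permutation test of 3 libraries against 3 cannot give a p below 0.1, which was reached by each gene whose groups did not overlap.

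**Figure D1:**
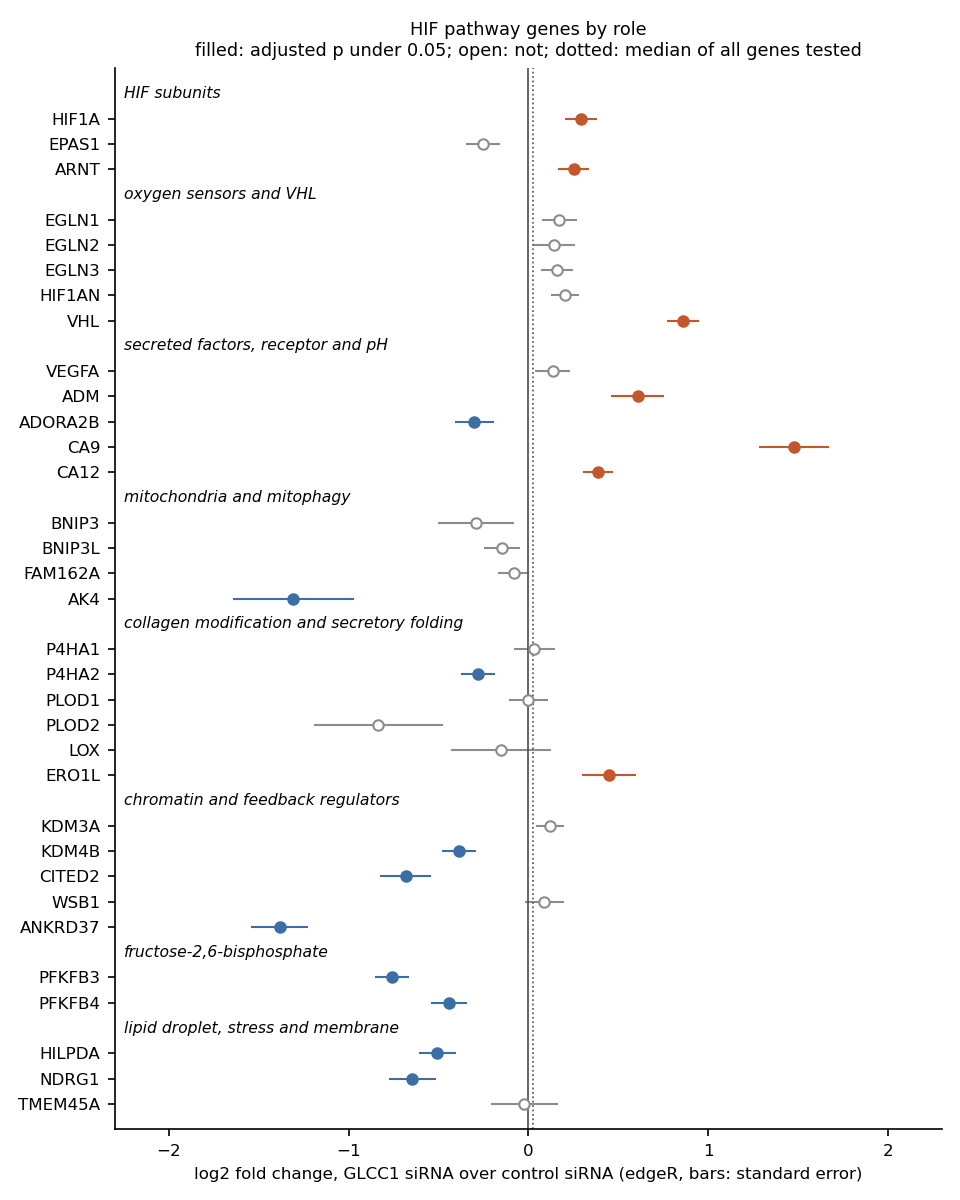
Log2 fold changes (horizontal axis, GLCC1 siRNA over control siRNA) of the 33 genes, grouped by role, with bars for the standard error of edgeR, filled points for an adjusted p under 0.05 and a dotted line at the median of all genes tested. The 5 genes of oxygen sensing and VHL all lie to the right of 0, the 4 mitochondrial genes all to the left (FAM162A lies to the right, at 0.0415, with library totals alone), and CA9 and ANKRD37 are the extremes.

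The transcript of the alpha subunit HIF1A, the factor that drives most of the acute response, was 79.5, 75.2 and 85.8 CPM in the control libraries and 100.1, 102 and 92.0 CPM in the GLCC1 siRNA libraries. No GLCC1 siRNA library overlapped a control, and the log2 fold change was 0.29 (standard error, SE, 0.09; adjusted p = 0.0224). ARNT, the shared partner subunit, was 58.8, 62.7 and 64.2 CPM in controls and 76.8, 71.7 and 72.7 CPM after GLCC1 siRNA, a log2 fold change of 0.25 (SE 0.09, adjusted p = 0.0375) without overlap of the groups. EPAS1, the alpha subunit also named HIF-2α, was 25.7, 27.8 and 26.9 CPM in controls and 22.7, 22.0 and 22.7 CPM after GLCC1 siRNA. The groups of EPAS1 did not overlap either, but its log2 fold change of -0.25 (SE 0.10, adjusted p = 0.0593) did not pass the test.

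The rises of HIF1A and ARNT were small, and both calls were lost when single libraries were left out. Without control replicate 1, control replicate 2 or GLCC1 siRNA replicate 1, the adjusted p of HIF1A from edgeR was 0.0902, 0.127 and 0.0628. For ARNT it lay between 0.0602 and 0.172 without any one library other than GLCC1 siRNA replicate 2. Without that replicate the fall of EPAS1 passed the test (log2 fold change -0.24, adjusted p = 0.0156). Compared per kilobase of transcript, HIF1A stood at 20.3 ± 1.35 CPM per kb and EPAS1 at 5.2 ± 0.20 CPM per kb in controls (SD, n = 3). The ratio of the 2 levels does not depend on library scaling. It was 3.91 ± 0.33 in controls and 5.70 ± 0.38 after GLCC1 siRNA (SD, n = 3), without overlap. The exact permutation test, two-sided, gave p = 0.1, the smallest possible. Since HIF1A was higher and EPAS1 lower without overlap, this outcome was fixed by the single genes. This ratio and those below are of pairs chosen after their values were seen, and are a description only.

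All 5 genes of oxygen sensing and VHL had positive log2 fold changes, and VHL alone passed the test of edgeR with TMM scaling. CITED2, which also acts against HIF and is given below with the feedback regulators, was lower. VHL, the substrate receptor of the ligase that destroys hydroxylated alpha subunits, was 94.0, 91.4 and 91.6 CPM in the control libraries and 157, 186 and 159 CPM after GLCC1 siRNA. The lowest GLCC1 siRNA library was far above the highest control, and the log2 fold change was 0.86 (SE 0.09, adjusted p = 8.58e-06), or 1.81-fold. VHL lies on chromosome 3 (chr3:10183462-10195351, plus strand, GRCh37) and shares 23.5% of its exon bases with an unnamed gene on the other strand. Shared exon bases here and below are those of GENCODE 44 on GRCh37. The study mapped against an Ensembl annotation of GRCh37, and whether it held the same neighbours was not checked. Whether counting used the strand is not given in the sources used here.

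The prolyl hydroxylases EGLN1, EGLN2 and EGLN3 had log2 fold changes of 0.17, 0.14 and 0.16, with 95% intervals of -0.03 to 0.38, -0.11 to 0.39 and -0.03 to 0.35. EGLN3 did not overlap between groups, at 44.5 to 47.4 CPM in controls and 49.1 to 53.8 CPM after GLCC1 siRNA, yet its adjusted p was 0.194. HIF1AN, the asparaginyl hydroxylase, was 121 to 123 CPM in controls and 136 to 144 CPM after GLCC1 siRNA (log2 fold change 0.20, SE 0.08, adjusted p = 0.062). HIF1AN passed the test with DESeq2 (0.22, adjusted p = 0.0323), with 10 counts required in every library (0.24, adjusted p = 0.0175) and without GLCC1 siRNA replicate 2 (0.23, adjusted p = 0.000275). With library totals alone, EGLN1, EGLN3 and HIF1AN passed as well (adjusted p = 0.0337, 0.0256 and 0.00548). EGLN1 and EGLN2 share 55.8% and 30.6% of their exon bases with readthrough or unnamed genes on the same strand. In union mode, pairs that overlap 2 genes of the annotation used for counting are assigned to neither. VHL works in a complex with elongins, a cullin and RBX1. Of these 4 ligase partners none was higher and 2 were lower, the elongin TCEB2 and RBX1. Among all genes averaging 1 CPM or more, 20.3% were higher and 24.8% lower.

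Among secreted factors, the receptor and the pH enzymes, 3 of 5 genes were higher and 1 was lower. The shares among genes averaging 1 CPM or more were 20.3% and 24.8%. CA9 encodes a carbonic anhydrase of the cell surface that helps hypoxic cells export acid and is among the most used markers of HIF activity. It had the largest rise of the set, at 2.81, 4.46 and 3.85 CPM in controls and 10.5, 8.11 and 12.4 CPM after GLCC1 siRNA. Every GLCC1 siRNA library was above every control, although CA9 was a low transcript of 41 to 81 read pairs per control library. Its log2 fold change was 1.48 (SE 0.19, adjusted p = 6.84e-05), or 2.78-fold. CA9 (chr9:35673925-35681156, plus strand, GRCh37) shares 35.7% of its exon bases with ARHGEF39 on the other strand, which itself was higher by 0.65 on the log2 scale (edgeR adjusted p = 9.72e-05). In the union mode of counting, pairs that overlap both genes are assigned to neither when strand is not used, and the part of ARHGEF39 in the rise of CA9 was not tested.

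CA12, the related membrane carbonic anhydrase, was 52.2 to 54.3 CPM in controls and 69.1 to 71.3 CPM after GLCC1 siRNA, a log2 fold change of 0.39 (SE 0.08, adjusted p = 0.00283) without overlap. Per kilobase, CA12 exceeded CA9 by a factor of 3.78 ± 0.84 in controls and 1.76 ± 0.36 after GLCC1 siRNA (SD, n = 3, exact permutation test, two-sided, p = 0.1). CA9 stayed the lower of the pair in both group means. ADM, which encodes the vasodilator peptide adrenomedullin, was 5.55, 6.01 and 6.02 CPM in controls and 7.98, 8.35 and 10.5 CPM after GLCC1 siRNA. Its groups did not overlap and its log2 fold change was 0.61 (SE 0.15, adjusted p = 0.00649).

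VEGFA, the main growth factor for blood vessels, was not called. It lay between 137 and 157 CPM in controls and between 142 and 181 CPM after GLCC1 siRNA, with a log2 fold change of 0.13 and a 95% interval of -0.08 to 0.35. ADORA2B, an adenosine receptor, was 23.3 to 27.8 CPM in controls and 19.6 to 22.5 CPM after GLCC1 siRNA (log2 fold change -0.30, SE 0.11, adjusted p = 0.0483). This call was lost without any one control library or GLCC1 siRNA replicate 1 (adjusted p from 0.0547 to 0.222), with DESeq2 (0.0749) and with library totals alone (0.218).

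**Figure D2:**
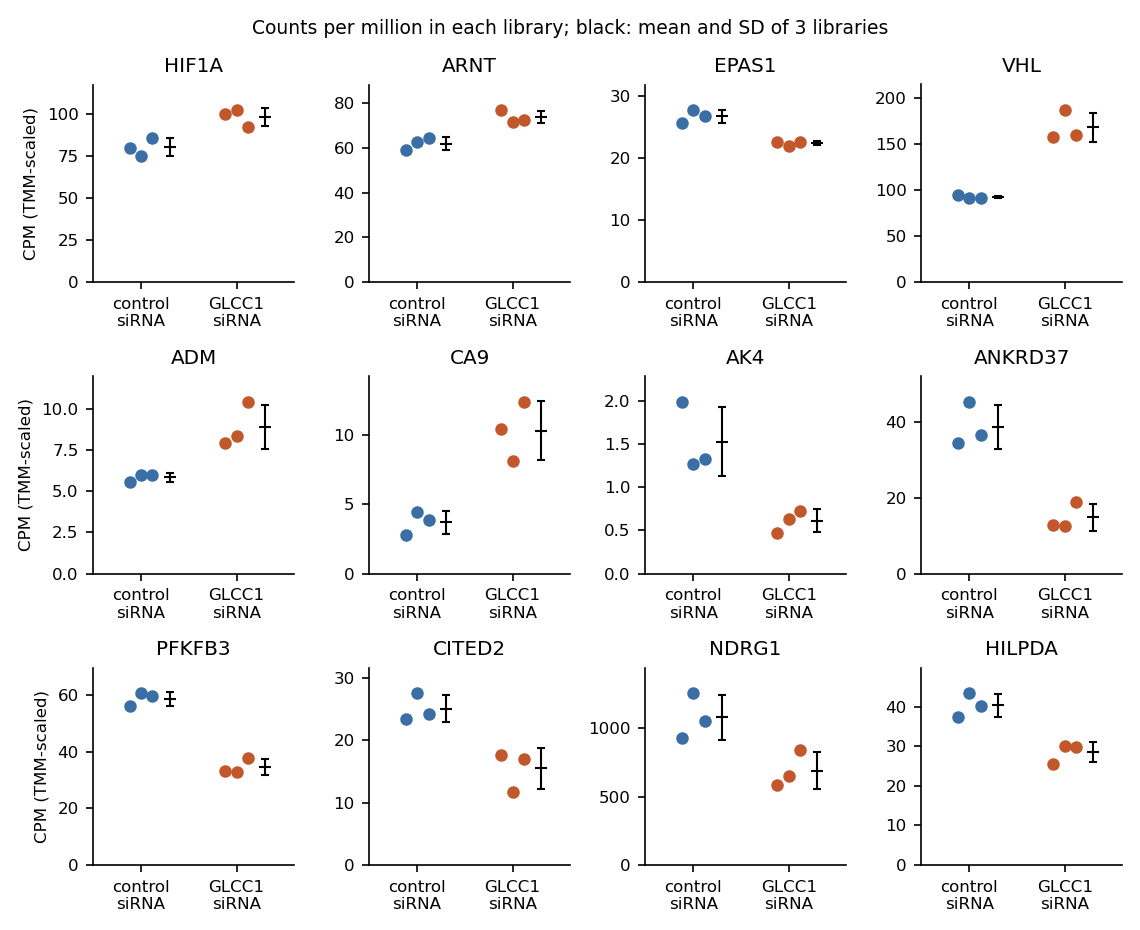
CPM (vertical axis, from 0) in each of the 6 libraries for the HIF subunits and the 9 genes with an adjusted p under 0.05 and an absolute log2 fold change of at least 0.5; coloured points are libraries of control siRNA and GLCC1 siRNA, black marks are the mean and SD of 3. The groups do not overlap in any of the 12 panels, and the control libraries of VHL lie closest together while those of AK4 and CA9 have the widest relative spread.

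The carbonic anhydrase CA9 and the ankyrin repeat gene ANKRD37 were the most divergent of the set, and BNIP3 is a classical target that was not called. Their promoters are shown to set these 3 responses beside the HIF core word. Each window runs from 250 bases before to 50 bases after the RefSeq transcription start (GRCh38.p14), 5′ to 3′ on the strand of the gene, and capitals mark every match to ACGTG or GCGTG on either strand. The windows are chr9:35673678-35673977 (plus strand) for CA9, chr4:185396591-185396890 (plus strand) for ANKRD37 and chr10:131981874-131982173 (minus strand) for BNIP3.
CA9: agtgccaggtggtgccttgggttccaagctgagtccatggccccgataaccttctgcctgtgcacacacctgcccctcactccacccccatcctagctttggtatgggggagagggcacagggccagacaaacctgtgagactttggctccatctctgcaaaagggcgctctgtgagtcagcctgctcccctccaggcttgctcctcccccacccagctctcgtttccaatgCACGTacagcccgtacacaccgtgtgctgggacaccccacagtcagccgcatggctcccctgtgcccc
ANKRD37: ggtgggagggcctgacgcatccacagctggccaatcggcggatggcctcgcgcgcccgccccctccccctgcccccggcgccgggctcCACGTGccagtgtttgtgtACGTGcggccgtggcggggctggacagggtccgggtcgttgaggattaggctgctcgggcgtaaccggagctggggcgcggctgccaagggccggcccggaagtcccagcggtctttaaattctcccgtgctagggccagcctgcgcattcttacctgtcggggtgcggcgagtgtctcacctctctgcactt
BNIP3: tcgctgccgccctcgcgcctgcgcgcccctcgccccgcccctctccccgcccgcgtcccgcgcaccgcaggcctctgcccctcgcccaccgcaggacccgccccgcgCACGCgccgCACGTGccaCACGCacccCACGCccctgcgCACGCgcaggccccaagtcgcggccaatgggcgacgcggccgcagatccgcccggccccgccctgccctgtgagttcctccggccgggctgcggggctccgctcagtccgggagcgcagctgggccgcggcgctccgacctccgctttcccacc
The CA9 window held 1 match to ACGTG, on the other strand, starting 18 bases before the start. The ANKRD37 window held 3 matches, 2 of them the overlapping arms of the palindrome CACGTG, which reads ACGTG on both strands. In BNIP3 there were 6, 4 of them GCGTG on the other strand. A match describes the letters of the window and is not a measured binding site.

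RefSeq windows were found for 28 of the 33 genes, 39 windows in all, and none for VHL, VEGFA, HILPDA, NDRG1 and BNIP3L. At least 1 of the 2 words stood in 32 of the 39 (82.1%), against 48.5% of all 35116 promoter windows in the table and 54.7% of the 22199 windows of protein-coding genes. ACGTG alone was in 46.2% of the windows of the set and 23.1% of those of protein-coding genes, and GCGTG in 56.4% and 43.0%. Most of the genes were listed as known HIF targets, so these shares are a description only. Either word occurred in 5 of 6 higher genes with a window, 7 of 8 lower genes and 11 of 14 genes not called.

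The 4 mitochondrial genes all had negative log2 fold changes, except that FAM162A turned to 0.0415 with library totals alone, and AK4 was the one that passed the test. AK4, an adenylate kinase of the mitochondrial matrix, was 1.99, 1.27 and 1.32 CPM in controls and 0.47, 0.64 and 0.73 CPM after GLCC1 siRNA. The groups were separate, but these levels stood for 22 to 29 read pairs per control library and 8 to 13 per GLCC1 siRNA library. Its log2 fold change was -1.31 (SE 0.33, adjusted p = 0.0086), and without control replicate 1 it was -1.09 with an adjusted p of 0.051. BNIP3 and BNIP3L, mitophagy receptors of the outer mitochondrial membrane, gave -0.29 (95% interval -0.75 to 0.16) and -0.15 (-0.37 to 0.07). Per kilobase, BNIP3L exceeded BNIP3 by a factor of 41.5 ± 3.97 in controls and 45.2 ± 2.49 after GLCC1 siRNA (SD, n = 3). This ratio overlapped between groups (exact permutation test, two-sided, p = 0.3). BNIP3L was 212 and 231 CPM in GLCC1 siRNA replicates 1 and 3 and 282 CPM in replicate 2, against 254 to 284 CPM in controls. Without replicate 2 its log2 fold change was -0.27 (adjusted p = 7.27e-05). FAM162A, a mitochondrial protein of hypoxia-induced cell death, gave -0.08 (95% interval -0.27 to 0.10).

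AK4 and CA12 carried a further feature in their 3′ UTRs that the list did not use. The word ACCTTGA pairs with bases 2 to 8 of the antisense strand listed by the study for its GLCC1 siRNA 1, though which siRNA was sequenced is not given. It occurred in the annotated 3′ UTR of 4 of the 33 genes (12.1%), AK4, CA12, HIF1AN and PLOD2, against 14.8% of 20077 genes with an annotated 3′ UTR. The sites of AK4 (chr1:65693207-65693213 and chr1:65697204-65697210, plus strand) and CA12 (chr15:63615439-63615445, minus strand) are printed because the 2 genes moved in opposite directions, with the word in capitals (GRCh37, 5′ to 3′ on the strand of the gene).
AK4 site 1: acttggtggccACCTTGAataattcttgc
AK4 site 2: aggagcagaccACCTTGAagattccccct
CA12 site: atcggagctgcACCTTGAacaaatagctc
All 5 sites in the set were followed by an A. Of the 4 genes, AK4 was lower, CA12 higher, and HIF1AN and PLOD2 were not called. Without these 4 genes, 6 of the remaining 29 were higher and 9 were lower.

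Among 6 genes of collagen modification and secretory folding, 1 was higher and 1 lower (20.3% and 24.8% of genes averaging 1 CPM or more). The spread between GLCC1 siRNA libraries was wide. ERO1L, the oxidase that forms disulfide bonds in the endoplasmic reticulum, was 113 to 124 CPM in controls and 120, 208 and 154 CPM after GLCC1 siRNA. These ranges overlapped, the log2 fold change was 0.45 (SE 0.15, adjusted p = 0.0349), and without GLCC1 siRNA replicate 2 it was 0.22 (adjusted p = 0.0832). Leaving out any one control library lost the call as well (adjusted p from 0.0789 to 0.122). P4HA2, a subunit of collagen prolyl hydroxylase, was 88.0 to 95 CPM in controls and 66.6 to 82.3 CPM after GLCC1 siRNA (log2 fold change -0.28, SE 0.09, adjusted p = 0.0373). Its call was lost without any one control library or GLCC1 siRNA replicate 1 (adjusted p from 0.0843 to 0.153), and with library totals alone (-0.16, adjusted p = 0.215).

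The paralogous subunit P4HA1 gave 0.03 (95% interval -0.22 to 0.28) and turned to -0.10 without GLCC1 siRNA replicate 2. PLOD2, a lysyl hydroxylase of collagen, was 2.95, 3.31 and 3.43 CPM in controls and 0.73, 3.34 and 1.73 CPM after GLCC1 siRNA. Replicate 2 alone stood within the control range, at 42 read pairs where replicates 1 and 3 had 14 and 31. The log2 fold change of PLOD2 was -0.84 (SE 0.36, adjusted p = 0.0947), and without that replicate it was -1.40 (adjusted p = 1.49e-05). PLOD1, the abundant lysyl hydroxylase, gave 0.00 (95% interval -0.23 to 0.23). LOX, the oxidase that crosslinks collagen, had 15 to 24 read pairs per library and gave -0.15 (95% interval -0.75 to 0.44), a width in which a moderate change was not detectable at this depth.

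Of 5 chromatin and feedback regulators, 3 were lower and none was higher, beside 24.8% and 20.3% of genes averaging 1 CPM or more. ANKRD37, an ankyrin repeat protein and one of the most regularly induced HIF targets, had the largest fall of the set. It was 34.4, 45.2 and 36.4 CPM in controls and 12.8, 12.6 and 18.9 CPM after GLCC1 siRNA. The highest GLCC1 siRNA library was well below the lowest control, and the log2 fold change was -1.38 (SE 0.16, adjusted p = 1.93e-05), to 0.383 of the control level. ANKRD37 (chr4:186317175-186321782, plus strand, GRCh37) shares 40.3% of its exon bases with UFSP2 on the other strand, whose own log2 fold change was 0.05 (adjusted p = 0.748). CITED2 competes with HIF for its coactivators and so feeds back on the pathway. It was 23.4, 27.5 and 24.1 CPM in controls and 17.7, 11.7 and 17.0 CPM after GLCC1 siRNA. GLCC1 siRNA replicate 2 was the lowest, no library overlapped, and the log2 fold change was -0.68 (SE 0.14, adjusted p = 0.00228).

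The histone demethylases KDM4B and KDM3A are both HIF targets that use oxygen themselves. KDM4B was 112 to 126 CPM in controls and 81.4 to 97.6 CPM after GLCC1 siRNA (log2 fold change -0.39, SE 0.09, adjusted p = 0.00598). KDM3A gave 0.12 with a 95% interval of -0.05 to 0.29, and with library totals alone 0.24 (adjusted p = 0.0315). The ratio of KDM3A to KDM4B, per kilobase, was 3.51 ± 0.10 in controls and 5.03 ± 0.64 after GLCC1 siRNA (SD, n = 3), without overlap (exact permutation test, two-sided, p = 0.1). WSB1, a ubiquitin ligase subunit, gave 0.09 (95% interval -0.15 to 0.33) and -0.04 without GLCC1 siRNA replicate 2.

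PFKFB3 and PFKFB4, enzymes of a family that makes and removes the allosteric activator of phosphofructokinase, were both lower. PFKFB3, the strongly kinase-sided isoform, was 55.9, 60.6 and 59.7 CPM in controls and 33.3, 32.8 and 37.8 CPM after GLCC1 siRNA. The libraries of each group lay close together and did not overlap, and the log2 fold change was -0.76 (SE 0.09, adjusted p = 4.03e-05). PFKFB4 was 148 to 179 CPM in controls and 110 to 131 CPM after GLCC1 siRNA (log2 fold change -0.44, SE 0.10, adjusted p = 0.00421). Per kilobase, PFKFB4 exceeded PFKFB3 by a factor of 3.47 ± 0.28 in controls and 4.34 ± 0.09 after GLCC1 siRNA (SD, n = 3), without overlap (exact permutation test, two-sided, p = 0.1). Neither enzyme catalyses a step of glycolysis itself.

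Of the remaining 3 genes, of lipid droplets, stress and the membrane, 2 were lower, beside 24.8% of genes averaging 1 CPM or more. NDRG1, a stress-responsive cytoplasmic protein, had the highest level of the set. It was 932, 1257 and 1057 CPM in controls and 583, 649 and 842 CPM after GLCC1 siRNA. The highest GLCC1 siRNA library came near the lowest control without reaching it, and the log2 fold change was -0.65 (SE 0.13, adjusted p = 0.00191). Without GLCC1 siRNA replicate 2 it was -0.60 and no longer passed (adjusted p = 0.151). HILPDA, which holds back the breakdown of lipid droplets, was 37.5, 43.4 and 40.2 CPM in controls and 25.5, 30.1 and 29.8 CPM after GLCC1 siRNA. All GLCC1 siRNA libraries were below the controls, with a log2 fold change of -0.51 (SE 0.10, adjusted p = 0.00197). TMEM45A, a transmembrane protein, gave -0.02 (95% interval -0.43 to 0.38).

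**Figure D3:**
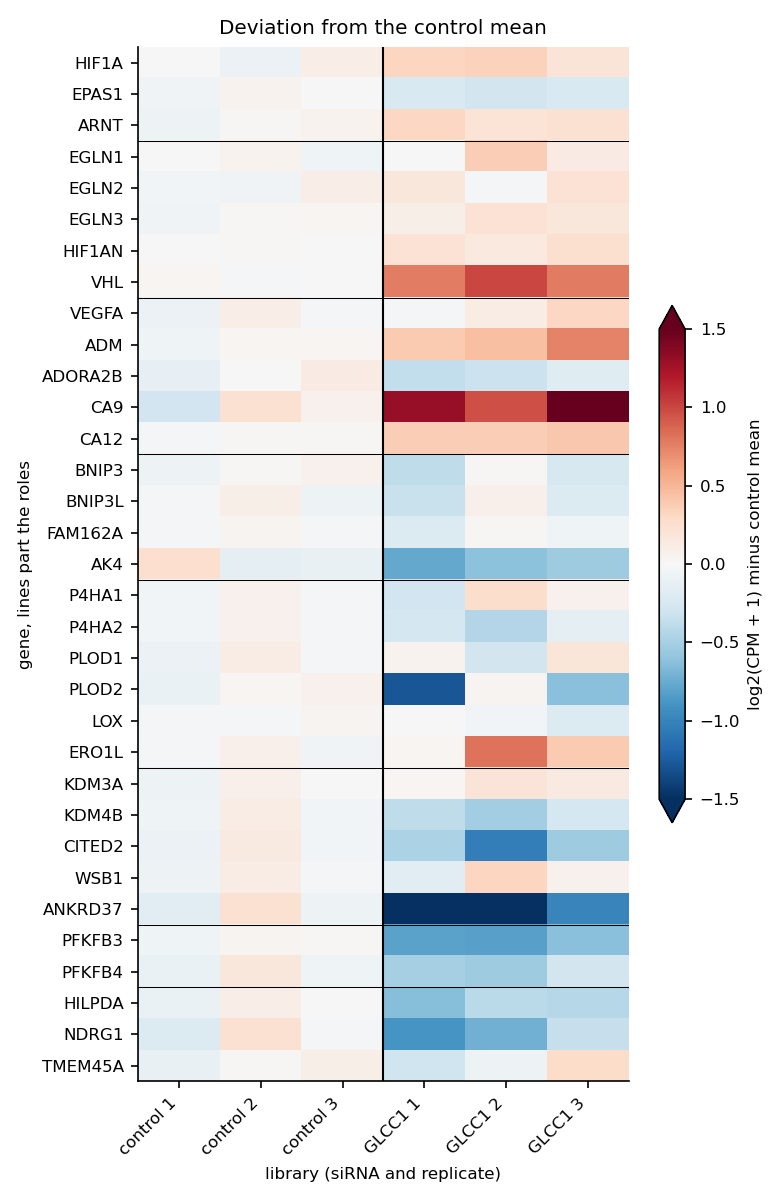
Deviation of log2(CPM + 1) from the control mean (colour, clipped at 1.5 in either direction) for each gene (rows, in order of role) and library (columns). The GLCC1 siRNA columns share their colour in most called genes, while ERO1L, PLOD2, BNIP3L, P4HA1 and WSB1 differ between GLCC1 siRNA replicate 2 and replicate 1.

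Levels spanned a wide range. Per kilobase of the canonical transcript, NDRG1 was highest with 358 ± 54.2 CPM per kb in controls (SD, n = 3), followed by PLOD1 with 126 ± 8.82 and P4HA1 with 106 ± 4.46 CPM per kb. AK4 was lowest with 0.223 ± 0.0585 CPM per kb, after LOX with 0.248 ± 0.0118 and PLOD2 with 0.861 ± 0.0670 CPM per kb. In the controls 22 of the 33 genes stood above 10 CPM per kb. Of 32 neighbours in this order, 13 overlapped in their control ranges, ANKRD37 with PFKFB4 and LOX with AK4 among them, so their order was not resolved. ANKRD37 moved from place 6 in the order of controls to place 16 after GLCC1 siRNA, with 49.3 ± 7.37 and 18.9 ± 4.56 CPM per kb, and VHL from place 14 to place 10, with 20.9 ± 0.33 and 38.0 ± 3.66 CPM per kb.

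**Figure D4:**
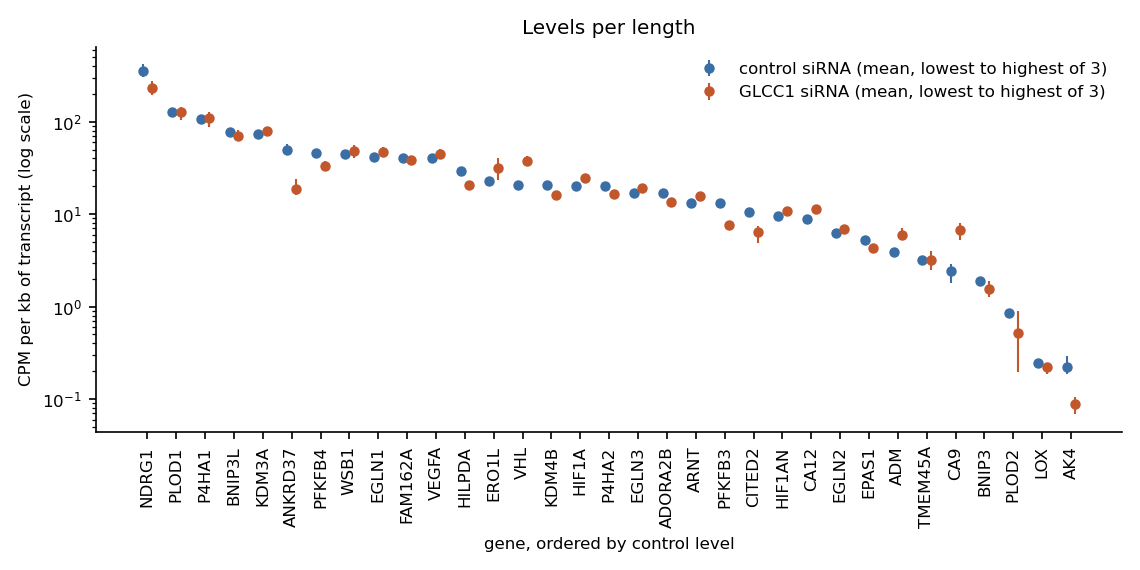
Levels in CPM per kilobase of transcript (vertical axis, log scale) of the 33 genes, ordered by the control mean; points are means and bars run from the lowest to the highest of 3 libraries. NDRG1 is the highest and AK4 the lowest in both groups, and the largest gaps between groups are those of ANKRD37, CA9 and AK4.

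Other genes of the pathway, taken from a written list of further HIF subunits and cofactors, ligase partners and targets outside glycolysis, also had calls in both directions. Of 46 listed, 44 were tested, since PPP1R3C and CXCR4 had no counts, and 8 were higher and 13 lower (18.2% and 29.5%), beside 14.9% and 16.7% of all genes tested and 20.3% and 24.8% of those that averaged 1 CPM or more. Their median log2 fold change was -0.11. With library totals alone 8 were higher and 7 lower, and the count of lower genes was 7 without control replicate 2 and 8 without control replicate 3. The largest rises among those of at least 5 CPM were of TGFA, a growth factor for the epidermal growth factor receptor (0.88), KDM2B, a histone demethylase (0.83), SAP30, a corepressor subunit (0.72), and BHLHE41, a repressor of the circadian clock (0.63). The largest falls at that level were of RIOK3, a kinase (-0.69), KDM5B, a histone demethylase (-0.66), EFNA1, an ephrin ligand (-0.56), and HMOX1, the heme oxygenase (-0.55). Each of these had an adjusted p under 0.05 from edgeR. Below 5 CPM, the called genes were VLDLR (-1.61) and IGFBP3 (-0.77), both lower, and STC1 (1.54), higher.

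The glycolytic HIF targets gave a one-sided count where the 33 genes outside glycolysis did not. Of 18, 11 were lower (61.1%) and none was higher by edgeR at an adjusted p under 0.05. Of all genes tested 16.7% were lower and 14.9% higher, and of those that averaged 1 CPM or more 24.8% and 20.3%. Of the 18, 1 was higher at an unadjusted p under 0.05, none by DESeq2 and 2 with library totals alone. The median log2 fold change of the 18 was -0.45. ALDOC, LDHA, SLC2A1 and ALDOA had the largest falls, with log2 fold changes of -1.90, -1.79, -0.88 and -0.69. In the 33 genes outside glycolysis the lower members stood beside 7 higher ones and the median was -0.02. The difference between the lists was not tested, since both were written with earlier results of these data known.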

How the data were processed

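RNA sequencing counts of 6 libraries were used, 3 per group. What the authors deposited were unnormalized counts of read pairs for every symbol, made by mapping to hg19 with TopHat2 2.0.11 and counting with HTSeq in union mode, per the submitters' processing notes and the methods of the study. HTSeq's closing tallies were removed after the no-feature share, 11.2% to 14.2% of read pairs, was taken.

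A gene was kept when the counts of at least one group added up to 5 or more, the filter of the study. Counts were scaled with TMM factors, 0.950 to 0.972 in controls and 1.03 to 1.05 after GLCC1 siRNA, without overlap of the groups. The test was the robust quasi-likelihood test of edgeR 4.0.16 in R 4.3.3, with Benjamini-Hochberg adjustment over 23074 genes. CPM are TMM-scaled, means are ± SD over 3 libraries, and levels per kilobase use the canonical transcript of GENCODE 44 on GRCh37, in which all 33 genes were matched, 1 by an older symbol. The pairs of genes set in ratio were chosen after their values were seen, so their p-values are a description only. Ratios of EGLN1 to EGLN3, EGLN1 to EGLN2, P4HA1 to P4HA2 and PLOD1 to PLOD2 were also taken. Each of these overlapped between groups. The procedure was tested on simulated data. No pair of libraries was a copy: their chi-square per degree of freedom was 1.92 or more.

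The genes and lists were chosen with earlier results of these data known. Values of every library are given for HIF1A, EPAS1, ARNT and genes with an adjusted p under 0.05 and an absolute log2 fold change of at least 0.5. Of the other lists, the 4 largest rises and falls with a mean of at least 5 CPM are named, and the called HIF pathway genes below that level. Depth was 11948790 to 19042516 read pairs, and log2 fold changes had a standard error of 0.08 for KDM3A and 0.33 for AK4. Promoters came from RefSeq (GRCh38.p14).

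Alternatives were DESeq2 1.42.0, its size factors, library totals alone, filters of 1 count in any library and 10 in every library, a replicate block, an adjusted p under 0.001, the genes without the siRNA word, and each library left out.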

Additional observations from a re-analysis of the deposited data

How the results depend on the processing

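Of 17 called genes, 10 kept their direction and side of the threshold under every alternative run on single genes: VHL, ADM, CA9, CA12, ANKRD37, CITED2, KDM4B, PFKFB3, PFKFB4 and HILPDA. Where 10 counts were required in every library, AK4 was not tested. The 7 genes higher became 11 with library totals alone and 2 at an adjusted p under 0.001, and 4 to 7 with each library left out. The 10 genes lower became 2 at an adjusted p under 0.001, and 7 to 12 with each library left out. The 13 other HIF pathway genes lower became 7 with library totals alone and 7 to 15 with each library left out, the lowest without control replicate 2 (7) and control replicate 3 (8). Glycolytic targets higher, 0 by edgeR, were 1 with a filter of 1 count in any library, 2 with library totals alone, and 0 to 1 with each library left out. PLOD1 turned positive with 10 counts in every library (0.0363), DESeq2 size factors (0.0096), DESeq2 (0.0095) and library totals alone (0.12), and ranged from -0.10 to 0.12 with libraries left out. TMEM45A turned positive with 10 counts in every library (0.0155) and library totals alone (0.10), and ranged from -0.24 to 0.14. FAM162A was 0.0415 with library totals alone, P4HA1 ranged from -0.10 to 0.17 and WSB1 from -0.0404 to 0.20 with libraries left out. The cause was not tested. Same-numbered libraries did not deviate together (correlations of -0.18, -0.32 and -0.01 over 14875 genes), so the numbers were not used as pairs. With the replicate block 5 genes were higher and 9 lower, HIF1A, ARNT, ADORA2B and P4HA2 no longer passed (adjusted p = 0.0644, 0.115, 0.0919 and 0.0761), and PLOD2 passed (0.0301). AK4, LOX, PLOD2 and BNIP3 stood below 4 CPM and had the widest standard errors of the set (0.21 to 0.36).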
